A study of Mus musculus with 12 samples.

Results

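NF-kappaB is a family of transcription factors that bind DNA as dimers of subunits sharing a Rel domain. In resting cells the dimers are held in the cytoplasm by IkappaB proteins, and signals from Toll-like, interleukin-1 and tumour necrosis factor receptors lead to phosphorylation and loss of the IkappaB protein and entry of the dimer into the nucleus. Several genes of the inhibitors are themselves targets of the dimers, and alveolar macrophages, which patrol the air spaces of the lung, use the pathway to induce cytokines and chemokines. Here the RNA of 10 genes of this system was followed in alveolar macrophages of a mouse lung transplant model. They were chosen by symbol as the 5 subunit genes (Rela, Rel, Relb, Nfkb1 and Nfkb2), the genes of 3 cytoplasmic inhibitors (Nfkbia, Nfkbib and Nfkbie), Nfkbiz, whose product is a nuclear IkappaB protein, and Tnfaip3, which encodes the ubiquitin-editing enzyme A20. All 10 were found among the 43430 genes of the table.

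The 12 libraries of polyadenylated RNA fell into 3 groups of 4: naive lungs, lungs taken 2 h after reperfusion, and lungs taken 24 h after it. Every library is labelled as male, 14 weeks of age and of the genotype Cx3cr1gfp/+B6, so the reporter allele at Cx3cr1 is carried by the naive controls too. Titles of the 8 reperfusion libraries carry the word Allo, which the labels leave unexplained, and whether the macrophages belonged to the graft or to the recipient is not given either. No label ties the libraries to different animals. The p-values therefore reflect library-to-library spread only, and this may be technical.

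Library totals, read from the steps of the deposited values, were 6112586 to 11997945 reads. Across the 11419 tested genes (genes are not independent replicates), Pearson's r was 0.968 to 0.987 within groups and 0.909 to 0.960 between them. The 12 alveolar macrophage markers, among them Siglecf, Marco and Pparg, passed the filter on low values in full. Against naive, 1 rose and 5 fell at 2 h and 2 rose and 7 fell at 24 h. Of all tested genes, 36.7% were called at 2 h against naive, 14.7% as higher and 22.0% as lower. At 24 h against naive 45.9% were called, 25.3% as higher and 20.6% as lower. The summed level of these markers was 11301 to 11702 RPKM in naive, 7673 to 9042 at 2 h and 9527 to 11398 at 24 h. RPKM expresses reads relative to the length of a gene model and to the total of its library. In 38 genes the naive mean lay at or under 5% of a 2 h mean of 2 RPKM or more, with no overlap. Of these, H2-Ea-ps, a pseudogene of the class II histocompatibility locus picked after its values were seen, had 0.0460 ± 0.0919 RPKM in naive, 23.1 ± 3.19 at 2 h and 3.37 ± 2.06 at 24 h (SD, n = 4 each). No NF-kappaB member was among the 38, out of 43430 genes in the table, so their absence says little about the members. The 38 were picked by these same values, and no matching count was made for other groups or for the other direction. A change at 2 h or 24 h cannot be told apart from any other difference between the groups of mice. In bulk RNA, fewer cells of a type and less RNA per cell cannot be told apart either.

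Promoter sequences of the members show where the kappaB consensus, the sequence that these factors bind, occurs before transcription starts of their own genes. RefSeq windows on GRCm38.p6 covering the 250 bases before a transcription start were matched for 7 of the 10 members, with 10 windows in all. The consensus of 10 bases was searched by name on both strands, and 1281 of 32851 mouse windows (3.90%) held it. Among the members, 7 of the 10 windows held it, and these belonged to Nfkb2, Rel, Nfkbia, Nfkbie and Tnfaip3. The windows of Rela and Nfkbib did not. Several of the 7 belonged to Nfkb2, whose windows 2 and 3 overlap. The windows of Nfkb2, Tnfaip3 and Nfkbib lie wholly or largely within the annotated gene, since some starts are internal to it. Capitals mark the matching bases in the 3 windows shown, which belong to Nfkbia, the member with the highest fold at 2 h, and to Rel and Nfkbie, which hold a match and did not pass the test at 2 h. They lie at chr12:55492648-55492897 on the minus strand, chr11:23770970-23771219 on the minus strand and chr17:45555450-45555699 on the plus strand.
Nfkbia: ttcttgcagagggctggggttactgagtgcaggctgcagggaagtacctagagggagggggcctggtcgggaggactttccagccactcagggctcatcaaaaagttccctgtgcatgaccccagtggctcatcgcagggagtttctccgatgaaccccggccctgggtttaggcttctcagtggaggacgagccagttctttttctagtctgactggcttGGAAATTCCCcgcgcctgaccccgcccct
Rel: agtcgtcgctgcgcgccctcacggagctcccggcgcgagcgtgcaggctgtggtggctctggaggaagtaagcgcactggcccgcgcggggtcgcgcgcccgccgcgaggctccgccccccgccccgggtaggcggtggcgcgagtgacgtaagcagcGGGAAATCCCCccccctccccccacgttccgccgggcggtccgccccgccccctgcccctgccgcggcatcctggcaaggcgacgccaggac
Nfkbie: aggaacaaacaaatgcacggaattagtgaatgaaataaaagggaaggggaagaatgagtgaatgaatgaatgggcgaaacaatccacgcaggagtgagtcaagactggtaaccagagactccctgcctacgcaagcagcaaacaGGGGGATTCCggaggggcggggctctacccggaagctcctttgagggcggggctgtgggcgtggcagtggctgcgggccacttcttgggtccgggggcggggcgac
The Nfkbia match began 29 bases before the start and the Nfkbie match 106 bases before it. Rel held overlapping matches that began 92 and 91 bases before the start. Of Nfkb2 and Tnfaip3 only the matches are shown. Nfkb2 had GGGAATTCCC and GGAATTCCCC, which overlap, 39 and 38 bases before its first start and GGGGCTTTCC 11 bases before it, and its other windows held GGAATGTCCC and GGGACTTTCC. Tnfaip3 had GGGACACCCC 125 bases and GGAAATCCCC 12 bases before its first start, and none in its other window. A match describes the letters and is neither a bound site nor a cause of any change, and a window without a match says nothing about the factor.

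The level of each gene in naive cells was highest for Nfkbia, at 47.8 ± 5.61 RPKM, followed by Rela at 37.7 ± 2.20 (SD, n = 4 each, as for all means below). The libraries of these genes did not overlap. Nfkb1 at 11.7 ± 0.597 and Nfkb2 at 10.6 ± 0.490 came next and overlapped, and Rel followed at 8.35 ± 0.470. Nfkbib at 6.95 ± 0.412, Nfkbie at 6.09 ± 0.964 and Tnfaip3 at 5.10 ± 0.237 formed a run in which each overlapped the next. Relb at 1.15 ± 0.125 and Nfkbiz at 0.676 ± 0.105 were lowest. The order of the lower genes depends on the gene length used. The length implied by the authors' values for Relb was 18703 bases, against 3885 bases in the union of its annotated exons, and for Rel it was 2799 against 7466 bases. With exon-union lengths the naive means were 5.52 for Relb, 3.13 for Rel, 11.8 for Tnfaip3 and 2.29 for Nfkbiz, while Nfkbia (46.8) and Rela (33.4) stayed first and second. Folds of 1 gene between groups do not depend on this length. The filter on low values and differences on the log2(RPKM + 1) scale do.

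**Figure D1:**
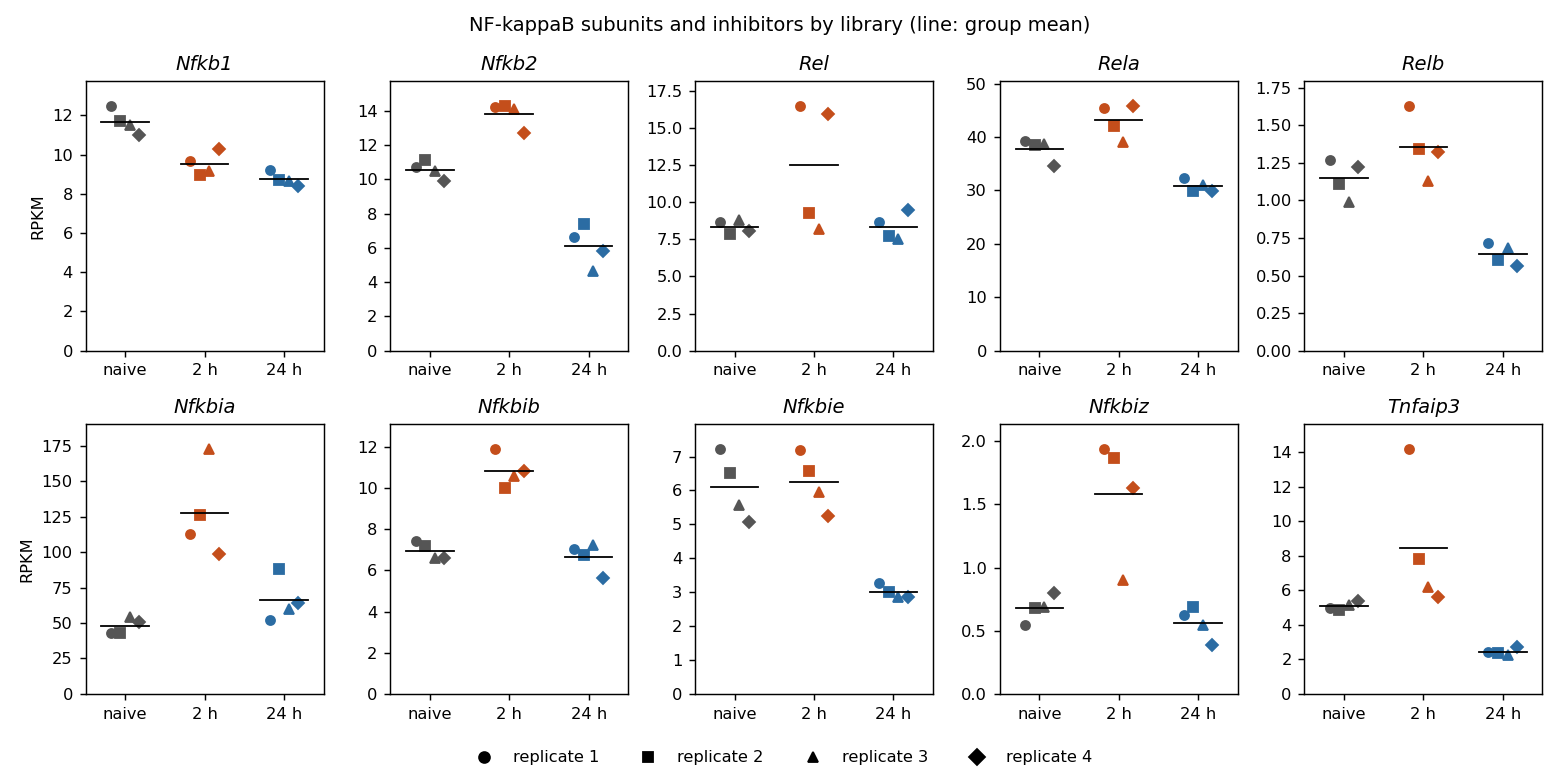
RPKM of each of the 10 genes (vertical axis, from 0, with its own scale in each panel) in naive, 2 h and 24 h libraries; a point is 1 library, its shape the replicate number, and the line the group mean. Nfkbia, Nfkbib, Nfkb2, Nfkbiz and Tnfaip3 are above every naive library in all 4 libraries at 2 h, and Nfkb1 is below. At 24 h Nfkb2, Rela, Relb, Nfkbie and Tnfaip3 are below every library of the other groups.

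The comparison of 2 h with naive describes how the system differed in the libraries taken early after reperfusion. The genes of the cytoplasmic inhibitors Nfkbia and Nfkbib rose, as did Tnfaip3 and the subunit genes Nfkb2 and Rela, while Nfkb1 fell. Of the 9 members that passed the filter on low values, 5 rose, 1 fell and 3 did not pass the test. Of all 11419 genes tested, 36.7% passed in either direction, 14.7% as higher and 22.0% as lower. The median member difference was 0.41 on the log2(RPKM + 1) scale, against -0.04 over all genes tested. Groups did not overlap in 6 of the 10 members, against 34.5% of all tested genes. Relb, at least 1 RPKM in all 2 h and in 3 naive libraries, would not have passed the filter without the 2 h group. All differences and their standard errors below are on the log2(RPKM + 1) scale, which understates changes of low genes, folds are ratios of mean RPKM, and adjusted p-values are limma's over all genes tested.

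Nfkbia encodes IkappaB-alpha, the inhibitor that NF-kappaB itself induces within a short time (chromosome 12, 55489410 to 55492647, minus strand, mm10). It had 43.0, 43.3, 54.4 and 50.4 RPKM in naive libraries 1 to 4 and 113, 126, 173 and 98.5 at 2 h. The lowest 2 h library was well above the highest naive one. The fold was 2.67, with a log2 difference of 1.38 ± 0.18 (SE, limma adjusted p = 0.000204). Between 486 and 2345 reads stood behind each value.

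Nfkbib encodes IkappaB-beta, a slower inhibitor of the same kind (chromosome 7, 28758251 to 28767512, minus strand). Its naive libraries held 7.42, 7.16, 6.62 and 6.58 RPKM and its 2 h libraries 11.9, 10.05, 10.6 and 10.8. All 2 h libraries were above all naive ones and lay close together. The fold was 1.56, the log2 difference 0.58 ± 0.08 (SE, limma adjusted p = 0.000202). Exons of Nfkbib share 314 bases with Ccer2 and 42 bases with Sirt2 on the opposite strand. The strand setting of the counting is not given in the sources used here, so reads of these genes cannot be told apart. Mean Ccer2 was 0.296 RPKM in naive and 1.49 at 2 h, and mean Sirt2 was 15.5 and 15.8.

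Nfkbie encodes IkappaB-epsilon, another cytoplasmic inhibitor (chromosome 17, 45555703 to 45563169, plus strand). It differed from Nfkbia and Nfkbib in that it did not pass at 2 h; that difference between genes was not tested. Its libraries ran from 5.07 to 7.23 RPKM in naive and from 5.24 to 7.19 at 2 h, an almost complete overlap. The log2 difference was 0.03 ± 0.10 (SE, limma adjusted p = 0.833), and its sign turned when single libraries were left out.

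Tnfaip3 encodes A20, which removes activating ubiquitin chains and so limits signalling to NF-kappaB (chromosome 10, 19000910 to 19015657, minus strand). It had 4.99, 4.86, 5.15 and 5.41 RPKM in naive and 14.2, 7.81, 6.21 and 5.60 at 2 h. All 2 h libraries were above the naive ones, replicate 1 by far and replicate 4 narrowly. The fold was 1.66 and the log2 difference 0.55 ± 0.20 (SE, limma adjusted p = 0.0492). Without 2 h replicate 1 the log2 difference was 0.30, with an adjusted p of 0.0295 from limma. The call was lost without each of the naive and 24 h libraries and without 2 h replicate 2 (adjusted p 0.0154 to 0.0977 over all single libraries left out), and likewise with no filter (0.104), with no variance trend (0.0521) and in a fit of the 2 groups alone (0.102).

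Nfkbiz encodes IkappaB-zeta, which acts in the nucleus as a cofactor for a part of the NF-kappaB targets (chromosome 16, 55811375 to 55838899, minus strand). Its level as deposited was too low for the filter, with 60 to 338 reads per library. The length implied by the deposited values was 16967 bases, against 5018 bases in the exon union. With the exon-union length its means were 2.29 in naive, 5.36 at 2 h and 1.89 at 24 h. It had 0.543, 0.676, 0.685 and 0.800 RPKM in naive and 1.94, 1.87, 0.899 and 1.63 at 2 h. All 2 h libraries were above all naive ones, replicate 3 by little. The fold of means was 2.34, and an exact two-sided permutation test over the libraries gave p = 0.0286, the smallest that 4 against 4 allow. In a fit with no filter the log2 difference was 0.61 ± 0.13 (SE, limma adjusted p = 0.0102).

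Nfkb2, whose product p100 both restrains and is processed into a subunit of the non-canonical pathway (chromosome 19, 46304320 to 46312385, plus strand), was the subunit gene with the highest log2 difference among those that passed. It had 10.7, 11.1, 10.5 and 9.91 RPKM in naive and 14.2, 14.3, 14.1 and 12.7 at 2 h, with no overlap. The fold was 1.31 and the log2 difference 0.36 ± 0.10 (SE, limma adjusted p = 0.0169). Its exons share 299 bases with Psd and 531 bases with AC114539.1 on the opposite strand, so the reads there cannot be told apart. Mean Psd was 1.68 RPKM in naive and 2.51 at 2 h.

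Rela encodes p65, the main activating subunit of the canonical dimer (chromosome 19, 5637483 to 5648130, plus strand). Its libraries held 39.2, 38.5, 38.7 and 34.5 RPKM in naive and 45.5, 42.1, 39.1 and 45.9 at 2 h. Replicate 3 at 2 h lay within the naive range. The fold was 1.14 and the log2 difference 0.19 ± 0.06 (SE, limma adjusted p = 0.0321). The call was lost with quantile normalisation (adjusted p = 0.0666 from limma), in a fit of the 2 groups alone (0.0625) and without naive replicate 2 or 4 or 2 h replicate 1, 2 or 4 (up to 0.0893).

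Rel encodes c-Rel, a subunit typical of blood cells (chromosome 11, 23736847 to 23770970, minus strand). It had 8.65, 7.84, 8.83 and 8.07 RPKM in naive and 16.5, 9.29, 8.19 and 15.9 at 2 h. At 2 h, replicates 1 and 4 were high, and replicates 2 and 3 lay at or near the naive range. The fold was 1.49, with a log2 difference of 0.47 ± 0.18 that did not pass (SE, limma adjusted p = 0.0655). It passed with median-ratio scaling (adjusted p = 0.0465 from limma), with voom on the recovered reads (0.0430) and without 2 h replicate 2 (0.0392) or 3 (0.0125).

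Relb encodes a subunit of the non-canonical dimer (chromosome 7, 19606217 to 19629438, minus strand). Its libraries held 1.27, 1.11, 0.986 and 1.22 RPKM in naive and 1.63, 1.34, 1.13 and 1.32 at 2 h, with overlap. The log2 difference was 0.13 ± 0.08 (SE, limma adjusted p = 0.234).

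Nfkb1, the gene of p105 and its product p50, a subunit without an activation domain (chromosome 3, 135584655 to 135691547, minus strand), was the 1 member that fell. It had 12.5, 11.7, 11.5 and 11.01 RPKM in naive and 9.69, 8.94, 9.18 and 10.3 at 2 h. Each 2 h library was below each naive one. The fold was 0.817 and the log2 difference -0.27 ± 0.05 (SE, limma adjusted p = 0.00302).

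Scaling moved the balance of calls over all genes. Of the genes called, 40.0% were higher at 2 h as deposited and 50.2% after median-ratio scaling, while the median of all genes stayed within 0.1 log2 of 0. The directions of the members called were the same under each scaling.

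**Figure D2:**
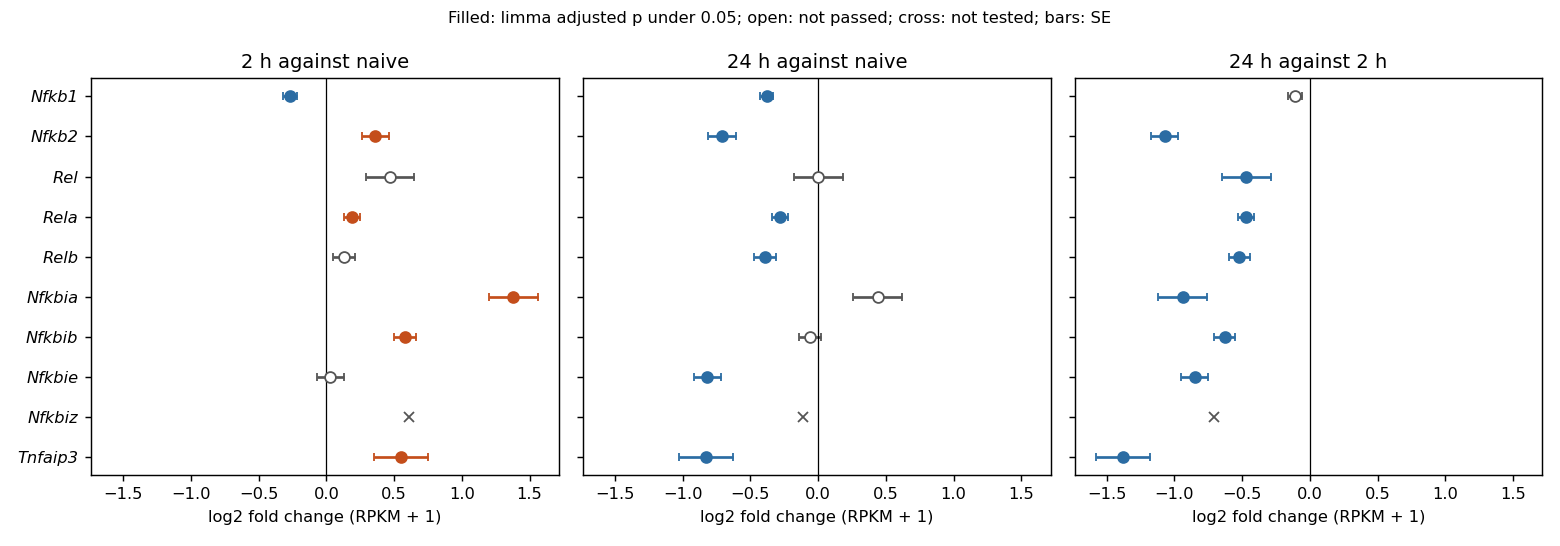
Log2 fold change on the log2(RPKM + 1) scale (horizontal axis, bars SE) of the 10 genes in 3 comparisons of 4 against 4 libraries; filled points passed at a limma adjusted p under 0.05, open points did not and crosses were not tested. Most members are right of 0 at 2 h against naive, and all are left of 0 at 24 h against 2 h.

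At 24 h the system was compared with naive a second time. The subunit genes Nfkb1, Nfkb2, Rela and Relb, the inhibitor gene Nfkbie and Tnfaip3 fell, and no member rose. Of the 9 members tested, 6 fell and 3 did not pass, against 45.9% of all genes called in either direction, 25.3% as higher and 20.6% as lower. At an unadjusted p under 0.05 limma gave 1 higher member, Nfkbia, and voom on recovered reads gave 0 after adjustment. The median member difference was -0.33 log2, against 0.00 over all genes tested, and 6 of 10 members did not overlap between the groups, against 47.9% of all genes.

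Nfkbie had 7.23, 6.51, 5.57 and 5.07 RPKM in naive and 3.27, 3.01, 2.86 and 2.85 at 24 h. The groups were far apart, and the 24 h libraries lay close together. Its fold was 0.492 and its log2 difference -0.82 ± 0.10 (SE, limma adjusted p = 5.67e-05).

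Tnfaip3 had 2.44, 2.39, 2.24 and 2.71 RPKM at 24 h, under each naive library. The fold was 0.479 and the log2 difference -0.83 ± 0.20 (SE, limma adjusted p = 0.00525). A gene that had been above naive in 4 of 4 libraries at 2 h was thus below it in 4 of 4 at 24 h.

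Nfkb2 had 6.66, 7.37, 4.63 and 5.83 RPKM at 24 h, again all below naive. The fold was 0.580 and the log2 difference -0.71 ± 0.10 (SE, limma adjusted p = 0.000143). Its neighbour Psd had a mean of 0.879 RPKM at 24 h.

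Relb, which the 2 h libraries carried past the filter, stood at 0.717, 0.602, 0.685 and 0.562 RPKM at 24 h, below every naive library. The fold was 0.560 and the log2 difference -0.39 ± 0.08 (SE, limma adjusted p = 0.00259). With no filter the adjusted p from limma was 0.00441, and with voom on recovered reads, which adds no RPKM of 1, the difference was -0.85.

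Nfkb1 had 9.22, 8.68, 8.65 and 8.41 RPKM at 24 h, lower than in any naive library. The fold was 0.749 and the log2 difference -0.38 ± 0.05 (SE, limma adjusted p = 0.000161).

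Rela had 32.3, 29.9, 31.1 and 29.9 RPKM at 24 h, and even its lowest naive library was higher. The fold was 0.817 and the log2 difference -0.28 ± 0.06 (SE, limma adjusted p = 0.00274).

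The other inhibitors and Rel did not pass against naive. Nfkbia had 52.0, 88.1, 60.2 and 64.1 RPKM at 24 h, of which replicate 1 lay within the naive range, with a fold of 1.38 and a log2 difference of 0.44 ± 0.18 (SE, limma adjusted p = 0.0651). It passed in a fit of the 2 groups alone (adjusted p = 0.0382 from limma) and without 2 h replicate 3 (0.0297) or 24 h replicate 1 (0.0367). Nfkbib had 7.05, 6.74, 7.23 and 5.62 RPKM, overlapping naive, with a log2 difference of -0.06 ± 0.08 (SE, limma adjusted p = 0.576). Rel had 8.67, 7.71, 7.54 and 9.47 RPKM, around its naive values, with a difference of -0.00 ± 0.18 (SE, limma adjusted p = 0.991). The sign of the Nfkbib and Rel differences turned when single libraries were left out. Nfkbiz had 0.624, 0.685, 0.544 and 0.387 RPKM, overlapping naive, and an exact two-sided permutation test gave p = 0.286.

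The comparison of 24 h with 2 h shares the 2 h libraries with the first comparison and the 24 h libraries with the second, so its results are not independent of theirs. It asks how the system moved between the times. Of the 9 members tested 8 fell, among them Relb, which passed the filter on low values only through the 2 h group, and 1, Nfkb1, did not pass, against 52.5% of all genes called in either direction, 30.9% as higher and 21.5% as lower. No member rose, at an unadjusted p under 0.05 in limma 0 were higher, and voom on recovered reads gave 0. The median member difference was -0.67 log2, against 0.05 over all genes tested, and 8 of 10 did not overlap, against 45.7% of all genes. Of all genes called, 59.0% were higher at 24 h as deposited and 49.8% after median-ratio scaling.

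The largest difference among the tested members was in Tnfaip3, whose mean was 8.44 ± 3.92 RPKM at 2 h and 2.44 ± 0.197 at 24 h. The fold was 0.289 and the log2 difference -1.38 ± 0.20 (SE, limma adjusted p = 0.000125). Even the lowest 2 h library was above all 24 h libraries.

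Nfkb2 went from 13.8 ± 0.739 to 6.12 ± 1.18 RPKM, with a fold of 0.443 and a log2 difference of -1.07 ± 0.10 (SE, limma adjusted p = 4.34e-06). Nfkbia went from 128 ± 32.3 to 66.1 ± 15.5 RPKM, a fold of 0.517 and a log2 difference of -0.94 ± 0.18 (SE, limma adjusted p = 0.00101). Its 24 h replicate 2, at 88.1 RPKM, came nearest to the 2 h libraries without reaching them.

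Nfkbie went from 6.24 ± 0.834 to 2.997 ± 0.196 RPKM, a fold of 0.480 (log2 difference -0.85 ± 0.10, SE, limma adjusted p = 2.98e-05). Nfkbib went from 10.9 ± 0.794 to 6.66 ± 0.721 RPKM, a fold of 0.614 (-0.63 ± 0.08, limma adjusted p = 2.75e-05). All 3 cytoplasmic inhibitor genes thus fell between the times.

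Among the subunits, Rela went from 43.1 ± 3.18 to 30.8 ± 1.16 RPKM, a fold of 0.714 (log2 difference -0.47 ± 0.06, SE, limma adjusted p = 5.55e-05). Relb went from 1.36 ± 0.207 to 0.642 ± 0.0719 RPKM, a fold of 0.473. Neither gene overlapped between the times. Since Relb passed the filter only through its 2 h libraries, where it was highest, its value is taken from the fit with no filter, with a log2 difference of -0.52 (limma adjusted p = 0.000498).

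Rel went from 12.5 ± 4.32 to 8.35 ± 0.898 RPKM, with overlap, a fold of 0.670 and a log2 difference of -0.47 ± 0.18 (SE, limma adjusted p = 0.0483). Its call was lost with no filter (adjusted p = 0.102 from limma), with no variance trend (0.0517), in a fit of the 2 groups alone (0.0964) and without each library other than 2 h replicates 2 and 3 (up to 0.139). Nfkb1 had 9.53 ± 0.602 and 8.74 ± 0.344 RPKM, a log2 difference of -0.11 ± 0.05 (SE, limma adjusted p = 0.109), and passed with median-ratio scaling (0.0141), quantile normalisation (0.0179) and voom (0.0113). Nfkbiz had 1.58 ± 0.476 and 0.560 ± 0.129 RPKM without overlap, and an exact two-sided permutation test gave p = 0.0286, the smallest possible.

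Setting each gene against Rela in the same library removes library scaling and gene length, and describes the balance between inhibitors and the canonical subunit. Values are given relative to the naive mean ratio, with no test. Rela itself rose at 2 h and fell at 24 h, with means of 37.7, 43.1 and 30.8 RPKM in naive, 2 h and 24 h. A ratio therefore moves with Rela as well as with the other gene. Nfkbia per Rela was 0.862 to 1.15 in naive, 1.69 to 3.48 at 2 h and 1.26 to 2.32 at 24 h, so that every library of both later groups was above the naive range. The level of Nfkbia alone did not pass at 24 h against naive, where its replicate 1 lay within the naive range. Nfkbib per Rela was 0.928 to 1.04, 1.28 to 1.48 and 1.02 to 1.26 in the same order. Nfkbie per Rela was 0.571 to 0.628 at 24 h, and Tnfaip3 per Rela 0.529 to 0.666, both below their naive libraries. The inhibitors thus differed among themselves: at 24 h the mean ratio was 1.70 for Nfkbia and 1.17 for Nfkbib, against 0.604 for Nfkbie.

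Among the subunits, Nfkb1 per Rela was 0.686 to 0.759 at 2 h and 0.898 to 0.939 at 24 h, against 0.961 to 1.03 in naive. It was thus lowest at 2 h and nearer to naive at 24 h, although its own level had not come back. Nfkb2 per Rela was 0.989 to 1.28 at 2 h and 0.531 to 0.881 at 24 h. Relb per Rela was 0.944 to 1.18 and then 0.616 to 0.728. Rel per Rela was 0.946 to 1.63 at 2 h and 1.09 to 1.43 at 24 h, where all libraries were above the naive range of 0.918 to 1.06. The mean of Rel itself was 8.35 RPKM both in naive and at 24 h, while Rela was lower at 24 h.

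**Figure D3:**
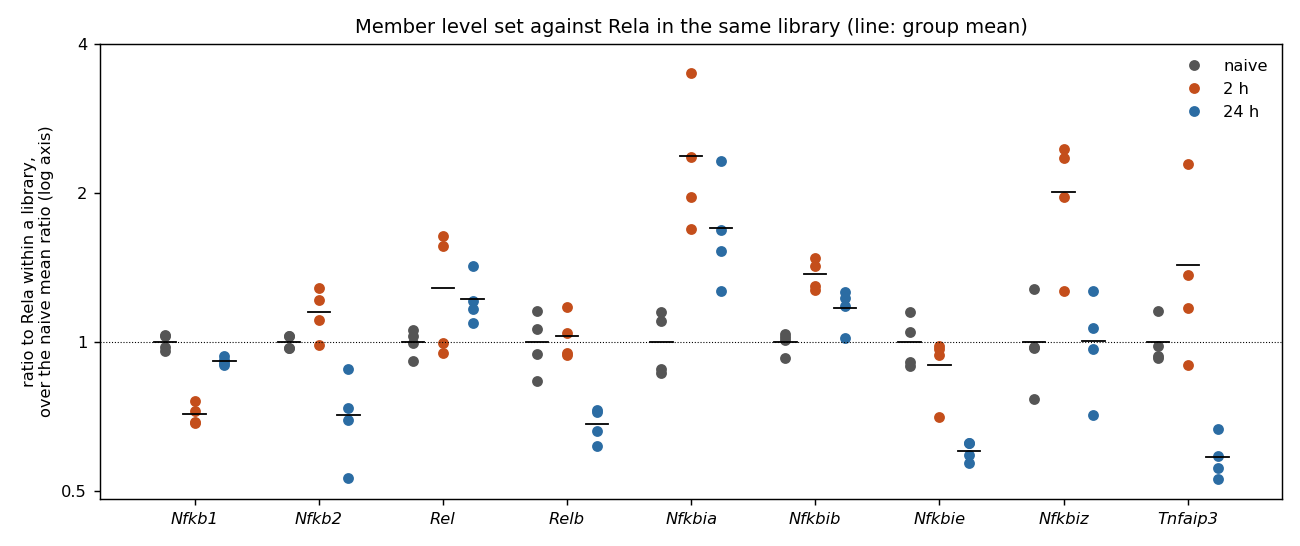
Ratio of each gene's RPKM to that of Rela in the same library, over the mean of the naive ratios (vertical log axis, dotted line at 1); a point is 1 library and the line the group mean. Nfkbia is above all naive libraries at both times, while Nfkbie and Tnfaip3 are below them at 24 h. Rela itself rose at 2 h and fell at 24 h against naive, which moves every ratio.

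The 2 h libraries varied more than the others in several members, and not in the same libraries. Rel was high in replicates 1 and 4, Tnfaip3 in replicate 1 and Nfkbia in replicate 3, while Nfkbiz was low in replicate 3. Nfkb2 and Nfkbib varied little at 2 h, with SDs of 0.739 around 13.8 RPKM and of 0.794 around 10.9 RPKM. Total reads at 2 h were 7242824 to 10347265, and the part of depth in this spread was not tested.

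Markers of other cell types moved with the groups and are given as sums over each list. Neutrophil markers summed to 15.5 to 21.8 RPKM in naive, 15.1 to 23.7 at 2 h and 32.1 to 38.8 at 24 h, with means of Mpo, Ly6g and Camp under 0.1. Of the 3 tested neutrophil markers, S100a8 rose and Csf3r fell at 24 h against naive. Interstitial macrophage markers were 19.3 to 22.5, 18.5 to 20.6 and 7.34 to 11.3, and lymphocyte markers 8.28 to 13.4, 2.50 to 6.19 and 1.30 to 3.23. The interstitial sum hides its members: C1qa, C1qb and C1qc fell at both times and Apoe fell at 24 h, all against naive. The 3 tested lymphocyte markers fell at both times. C1qa, C1qb, C1qc and the lymphocyte markers Cd79a and Nkg7 passed the filter only through the naive group, where they were high, so the filter favoured their falls. Monocyte markers were 17.9 to 22.9, 20.8 to 116 and 9.25 to 13.0, with Ly6c2 under 0.1. Of 4 tested monocyte markers, Nr4a1, which also responds to stimulation, rose at 2 h, Ace and Ccr2 fell at both times and Treml4 fell at 24 h, all against naive, and Ccr2 too passed the filter only through the naive group. Epithelial markers were 66.0 to 71.1, 59.2 to 76.9 and 33.0 to 40.1, and of 4 tested Epcam fell at 24 h. No listed marker was at 0 in all 12 libraries. Dendritic cell markers were at most 6.92, endothelial and stromal ones at most 2.79, and red cell and platelet ones at most 4.25. The part of these cells in the member results was not tested.

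Other genes of the pathway were taken from lists. Beside their counts, 36.7% of all tested genes were called at 2 h against naive, 14.7% as higher and 22.0% as lower. At 24 h against naive 45.9% were called, 25.3% as higher and 20.6% as lower. At 24 h against 2 h 52.5% were called, 30.9% as higher and 21.5% as lower. Among 10 tested kinases and kinase partners (of 11), 4 rose and 0 fell at 2 h against naive, 2 rose and 2 fell at 24 h against naive, and 0 rose and 6 fell at 24 h against 2 h. Their median log2 differences were 0.15, 0.01 and -0.28, against -0.04, 0.00 and 0.05 over all genes tested. At an unadjusted p under 0.05, limma gave 0 lower kinases at 2 h and 0 higher ones at 24 h against 2 h, as did voom after adjustment. Tbk1, a kinase next to the IkappaB kinases, had 26.9 ± 0.525 RPKM in naive, 40.5 ± 2.93 at 2 h and 31.2 ± 1.73 at 24 h, a rise of 1.51-fold (limma adjusted p = 3.63e-05) and then a fall. Ikbkb, the catalytic IkappaB kinase of the canonical pathway, fell from 6.47 ± 0.371 RPKM in naive to 4.22 ± 0.282 at 24 h (limma adjusted p = 0.000239). Map3k14, which starts the non-canonical pathway, fell from 2.50 ± 0.252 to 1.71 ± 0.209 (0.00475), while Map3k7, an upstream kinase, rose at both times (1.17-fold and 1.19-fold). Map3k8 rose 1.33-fold at 2 h and fell thereafter. The 2 h count of 4 kinases came to 1 in a fit of the 2 groups alone, to 2 without naive replicate 1, 3 or 4 or 2 h replicate 2, and to 1 without naive replicate 2.

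Of 15 tested adaptors (of 16), 4 rose and 3 fell at 2 h, 0 rose and 4 fell at 24 h against naive, and 1 rose and 8 fell at 24 h against 2 h. Median log2 differences in this list were 0.07, -0.15 and -0.19, and the shares of all tested genes called were 36.7%, 45.9% and 52.5%. Limma gave 0 higher adaptors at 24 h against naive at an unadjusted p under 0.05, and voom 0 after adjustment. Malt1, a paracaspase that links receptors to the kinases, rose from 9.59 ± 0.409 to 27.0 ± 5.22 RPKM at 2 h, 2.81-fold (limma adjusted p = 1.96e-05), and fell to 8.40 ± 1.09 at 24 h (1.23e-06 against 2 h). Traf6, a ubiquitin ligase of the Toll-like receptor pathway, rose 1.71-fold at 2 h (limma adjusted p = 0.00268), and Rnf31, a part of the linear ubiquitin ligase, fell to 0.740 of its naive level (0.00662). At 24 h Birc3, Traf5 and Traf3 were at 0.654, 0.693 and 0.814 of naive (limma adjusted p = 0.000175, 0.00750 and 0.0431). The 7 adaptors called at 2 h were 4 in a fit of the 2 groups alone, and the 4 at 24 h against naive were 2 with no filter, 1 with a filter at 5 RPKM, and 2 without naive replicate 1 or 2, 2 h replicate 3 or 24 h replicate 3 or 4.

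Ubiquitin editors and other brakes numbered 11 tested of 14, of which 5 rose and 2 fell at 2 h, 0 rose and 6 fell at 24 h against naive, and 0 rose and 7 fell at 24 h against 2 h. The list's medians were 0.17, -0.24 and -0.34 log2, beside 36.7%, 45.9% and 52.5% of all tested genes called. Limma gave 1 and 0 higher editors and brakes at 24 h at an unadjusted p under 0.05, and voom 0 and 0 after adjustment. Zc3h12a, whose product Regnase-1 degrades inflammatory messenger RNAs, rose from 18.5 ± 1.12 to 57.0 ± 17.9 RPKM at 2 h, 3.08-fold (limma adjusted p = 0.000252), and fell to 15.6 ± 1.04 at 24 h (2.33e-05). Spata2 and Rnf11, partners of CYLD and of A20, rose 1.39-fold and 1.24-fold at 2 h (limma adjusted p = 0.00229 and 0.00286). Tnip2, an A20-binding protein, fell to 0.518 of its 2 h level at 24 h (limma adjusted p = 2.40e-05). N4bp1, Trafd1 and Itch were at 0.815, 0.799 and 0.758 of naive at 24 h and all passed.

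Among 7 other nuclear IkappaB proteins and co-inhibitors, 0 rose and 0 fell at 2 h, with limma giving 1 lower at an unadjusted p under 0.05 and voom 0 after adjustment. Against naive 1 rose and 0 fell at 24 h, and against 2 h 2 rose and 0 fell, with 0 lower at an unadjusted p under 0.05 in limma and 0 fallen with voom. The medians were 0.07, 0.18 and 0.16 log2 in the order 2 h against naive, 24 h against naive and 24 h against 2 h. In that order, 36.7%, 45.9% and 52.5% of all tested genes were called. Bcl3, a nuclear IkappaB protein, had 1.75 ± 0.304 RPKM in naive and 4.50 ± 3.50 at 2 h and did not pass (limma adjusted p = 0.217). Commd1, which promotes degradation of p65, rose 1.42-fold at 24 h against naive (limma adjusted p = 0.00107), the 1 gene of that list to do so. Pdlim2, which promotes loss of nuclear p65, had 1.72 ± 0.243 RPKM in naive, 0.877 of that at 2 h and 1.83 ± 0.119 RPKM at 24 h, and passed in no comparison (limma adjusted p = 0.315 at 2 h against naive). Nkrf, a repressor of NF-kappaB targets, had 2.21 ± 0.405 RPKM in naive and 2.89 ± 0.226 at 24 h and did not pass (limma adjusted p = 0.151). Nkiras2, an inhibitor of IkappaB-beta degradation, rose 1.30-fold at 24 h against 2 h (limma adjusted p = 0.00148). The count at 24 h against naive was 3 in a fit of the 2 groups alone, 0 with a filter at 5 RPKM, 2 without 2 h replicate 4 and 3 without 24 h replicate 4. The 2 called at 24 h against 2 h came to 1 with a filter at 5 RPKM, and the 0 at 2 h became 1 without 2 h replicate 1 or 4 or 24 h replicate 4.

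Of 21 tested target genes (of 31), 12 rose and 0 fell at 2 h, 2 rose and 5 fell at 24 h against naive, and 1 rose and 16 fell at 24 h against 2 h. Their median log2 differences were 0.65, -0.26 and -1.20, beside 36.7%, 45.9% and 52.5% of all tested genes called. For the 0 at 2 h, limma gave 0 lower at an unadjusted p under 0.05 and voom 0 after adjustment. Cd83, a surface marker of activated antigen-presenting cells, went from 27.4 ± 3.25 RPKM in naive to 7.51 ± 2.63 at 24 h, a fold of 0.274 (limma adjusted p = 0.000265). Tlr2, a receptor upstream as well as a target, rose 1.88-fold at 2 h (limma adjusted p = 6.72e-05). It was at 0.637 of naive at 24 h (limma adjusted p = 0.000288). Ccl3, a chemokine, rose from 14.5 ± 4.92 RPKM in naive to 87.9 ± 27.7 at 2 h, 6.05-fold (limma adjusted p = 2.49e-05). At 24 h Ccl3 had 14.0 ± 1.63 RPKM, 0.159 of its 2 h level (limma adjusted p = 4.28e-06), and did not pass against naive (0.976). Birc3, an inhibitor of apoptosis that stands in the adaptor list too, was at 0.512 of its 2 h level (3.08e-06). The 7 targets called at 24 h against naive were 11 in a fit of the 2 groups alone. Tnf, a cytokine of the early response, had 4.79 ± 0.868 RPKM in naive and 10.9 ± 1.03 at 2 h, where it rose 2.26-fold (limma adjusted p = 0.000185). Of the 21, Ccl5 passed the filter only with the naive group, Ccl4 only with the 2 h group, and Cxcl1 needed both. Ccl4 rose at 2 h against naive and fell at 24 h against 2 h, and the filter favoured these calls. Ccl5 and Cxcl1 passed the test in no comparison. In the other pathway lists no gene depended on 1 group to pass.

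**Figure D4:**
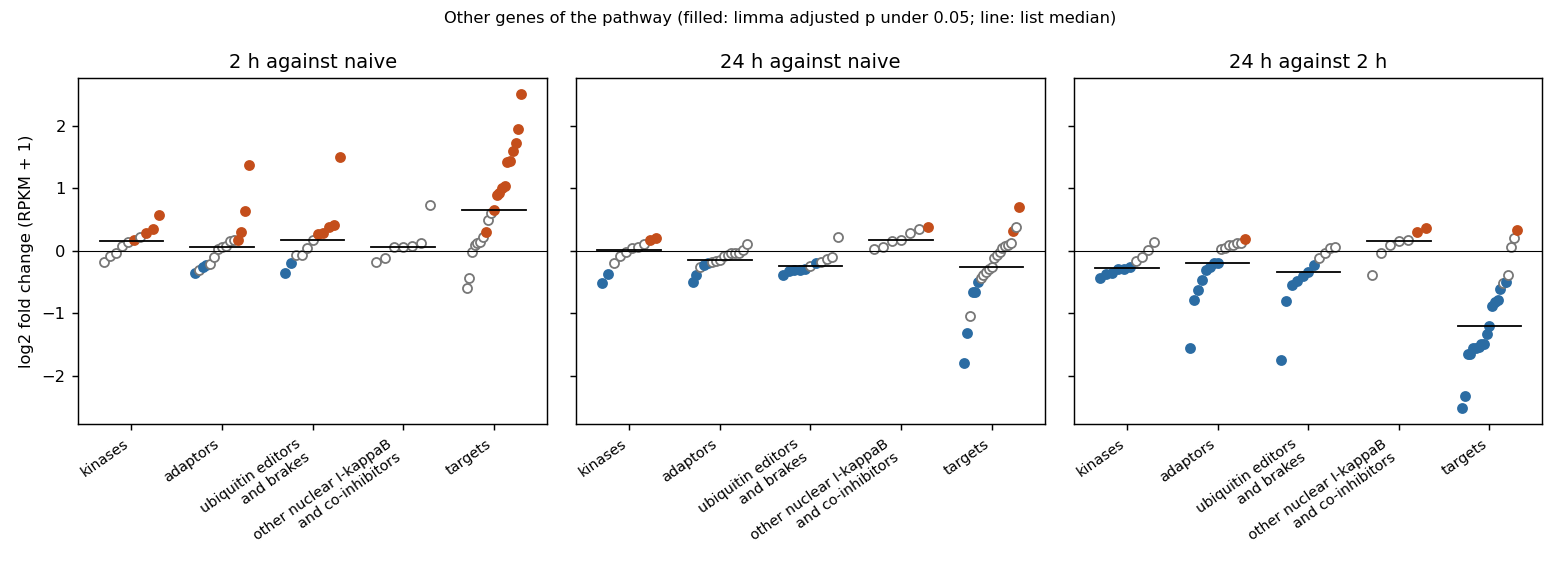
Log2 fold change on the log2(RPKM + 1) scale (vertical axis) of the tested genes of 5 lists in 3 comparisons; a point is 1 gene, ordered within a list, filled at a limma adjusted p under 0.05 and open otherwise, and the line is the list's median. The target list lies highest at 2 h, with a median of 0.65, and lowest at 24 h against 2 h, with -1.20.

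Genes whose profile over the 12 libraries was most like that of a member were ranked by the mean absolute difference between centred log2(RPKM + 1) profiles, for the 3 members with a called log2 difference of at least 1. For Nfkb2 these were Atp2b1 (0.12), Psd (0.13) and Cd44 (0.13), of which Psd shares exon sequence with it. Cd44 had 97.5 ± 5.75 RPKM in naive, 117 ± 3.09 at 2 h and 60.2 ± 5.10 at 24 h. For Nfkbia they were B4galt1 (0.14), Pla2g12a (0.14) and Emilin2 (0.15), and B4galt1 had 42.8 ± 2.87, 101 ± 16.4 and 61.7 ± 4.76 RPKM. For Tnfaip3 they were Dennd4a (0.12), Plaur (0.14) and Hs6st1 (0.16). Plaur, the urokinase receptor gene, had 247 ± 15.3 RPKM in naive, 444 ± 133 at 2 h and 128 ± 9.70 at 24 h.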

How the data were processed

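Polyadenylated RNA of alveolar macrophages was sequenced in 12 libraries. RPKM values by Ensembl gene were deposited by the authors. The submitters' processing notes name build mm10 and the tools bcl2fastq, TopHat2 and HTSeq. Versions, annotation, gene lengths and strand setting were not stated (not given in the sources used here). RPKM values are not counts, so the main test was limma 3.58.1 (R 4.3.3) on log2(RPKM + 1) over all 12 libraries, with a variance trend, two-sided moderated tests and Benjamini-Hochberg adjustment over the 11419 genes with at least 1 RPKM in at least 4 libraries, for each comparison separately, at a threshold of 0.05. Nfkbiz failed this filter and was tested by an exact permutation test over 70 arrangements.

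From the steps of the RPKM values, whole reads (tolerance 0.02 of a read) could be recovered for 11419 of 11419 tested genes (100%), on library totals of 6112586 to 11997945. limma's voom, with median-ratio library sizes, was run on these reads as an alternative chosen after seeing the data. With it 4169, 5408 and 6271 genes were called at 2 h against naive, 24 h against naive and 24 h against 2 h. In all 22 alternatives were run, 21 of them planned. Positions came from GENCODE M21 on the same assembly as mm10, promoters from RefSeq, and near-identical copies were sought with BLAST 2.17.0, which found only the overlapping genes named. In each pathway list, the 3 genes with the smallest p of a comparison were named. The steps were tested on simulated data. The members, lists and rules were chosen with earlier results of these data known. The result of 1 marker gene is not reported here.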

Additional observations from a re-analysis of the deposited data

Results flagged for a closer look

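Among 30 groups of 4 libraries (10 members in 3 groups), 2 held a library that stood apart from the other 3, where chance gives about 1 in 20. Nfkb2 at 2 h had 12.7 RPKM in replicate 4, against 14.1 to 14.3 in the others. Rela in naive had 34.5 RPKM in replicate 4, against 38.5 to 39.2, and this was the library with the fewest reads, 6112586.

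For 3 members the effects against naive had opposite calls at the 2 times, rising at 2 h and falling at 24 h, and the log2 difference of 24 h from 2 h was -1.07 for Nfkb2, -0.47 for Rela and -1.38 for Tnfaip3. The 2 h rise lost its call in 13 of 22 alternatives for Tnfaip3 and in 7 for Rela, while Nfkb2 kept its calls in all 22. Since these 3 were picked by their opposite calls in the same libraries, the differences are a description and no further test.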

How the results depend on the processing

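Under the 22 alternatives, Nfkb2 in all comparisons, Nfkb1, Nfkbia and Nfkbib at 2 h, and Nfkb1, Nfkbie, Rela, Relb and Tnfaip3 at 24 h against naive kept their direction and call wherever they were tested, as did Nfkbia, Nfkbib, Nfkbie, Rela, Relb and Tnfaip3 at 24 h against 2 h. The number of members called, leaving out 1 library at a time, was 4 to 7 at 2 h against naive, 6 to 7 at 24 h against naive and 7 to 8 at 24 h against 2 h. With a filter at 5 RPKM, which tests fewer genes, 2669 genes were called at 2 h against naive and 3923 at 24 h against 2 h, where the main counts were 4189 and 5992. The sign turned, without a call, for Nfkbie at 2 h (-0.04 to 0.11 over left-out libraries, with -0.00, -0.03 and -0.04 below 0), for Rel at 24 h against naive (-0.06 to 0.04, with 0.01, 0.02, 0.03 and 0.04 above 0) and for Nfkbib at 24 h against naive (-0.09 to 0.01). The cause was not tested. Replicate numbers did not pair the libraries (r of same-numbered deviations -0.04 to 0.05). The replicate block left 6, 6 and 8 members called; Rel passed at 2 h (limma adjusted p = 0.0460) and Tnfaip3 did not (0.0589), and no other member call changed. Low counts limit Nfkbiz (60 reads at the lowest) and Nfkbie (63).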
